A study of Mus musculus with 4 samples.

Results

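The interferon system was followed through 43 genes in 4 primary mammary tumors of female mice: the interferon receptor chains, Stat2 and 6 Irf transcription factors, and genes that interferon is known to induce. The 43 genes were picked by name as interferon-stimulated genes, interferon receptors and Irf or Stat factors, out of 23746 gene rows in each tumor's table. All 43 were found, all passed the filter of at least 1 FPKM in at least 2 tumors, and they were tested among 12752 genes. FPKM, fragments per kilobase of transcript scaled to the total of mapped fragments, is a level corrected for transcript length, so levels of different genes can be set side by side on it.

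Tumors 26043 and 26044 came from WapCre;Rank;Brca1;p53 triple-mutant females and tumors 26048 and 26050 from WapCre;Brca1;p53 double-mutant females, so Brca1 and p53 were targeted in all 4 and only the Rank allele separated the genotypes. The WapCre transgene acts in luminal and basal mammary epithelial cells, and stromal and immune cells in the same tumor keep intact alleles. No tumor of a mouse with intact alleles was among the samples, each value comes from 1 whole tumor, and the age of the mice and the grade of each sequenced tumor were not given in the sources used here. The paper reports only intermediate-grade tumors in triple-mutant mice, and both intermediate-grade and high-grade tumors in double-mutant mice. Grade may therefore differ between the genotypes here as well. In bulk tumor RNA, fewer cells of a type and less RNA per cell cannot be told apart. Tnfrsf11a, which encodes RANK, was at 2.07 and 0.962 FPKM in the triple-mutant tumors 26043 and 26044 and at 10.6 and 11.9 FPKM in the double-mutant tumors 26048 and 26050, in the order that the labels give. Of the genes targeted in both genotypes, Trp53 was at 15.7 and 87.8 FPKM in tumors 26043 and 26044 and at 149.7 and 103.1 FPKM in tumors 26048 and 26050, lowest in 26043, and Brca1 was at 3.26 to 5.69 FPKM. With no tumor of intact alleles these values check no deletion. Tumor 26044 stood apart from the other 3 by a low sum of 6 epithelial markers, 371.1 FPKM against 1826 to 2857. Epcam, Krt8, Krt18 and Cdh1 were lowest in it, while Krt5 and Krt14 were lowest in tumor 26048. The genotype results are therefore also given without tumor 26044.

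Type I interferons are cytokines that nearly every cell can make once it senses foreign or misplaced nucleic acid. They bind the IFNAR1 and IFNAR2 receptor pair, and kinases on the receptor then activate a complex of STAT proteins with IRF9 that binds interferon-stimulated response elements in promoters. Interferon gamma, made mainly by T and NK cells, binds the IFNGR1 and IFNGR2 pair and acts through gamma-activated sites, and IRF1 relays part of its program. In tumors, interferon-stimulated genes are read as a sign of nucleic acid sensing or of contact with immune cells.

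The genotypes did not separate the interferon genes, and most of the variation lay inside the triple-mutant pair. Of the 43 genes, 38 were highest in triple-mutant tumor 26043, against 27.9% of the 12752 genes tested, and 32 were lowest in the other triple-mutant tumor, 26044, against 39.0% of all genes. Both held for 29 members, against 11.5% of all genes. The log2 level, log2(FPKM + 1), had a median over the members of 5.03 in tumor 26043 and 2.62 in tumor 26044, and double-mutant tumors 26048 and 26050 had medians of 3.73 and 3.05. Over all genes tested the 4 medians were 3.75, 3.52, 3.64 and 3.56.

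**Figure D1:**
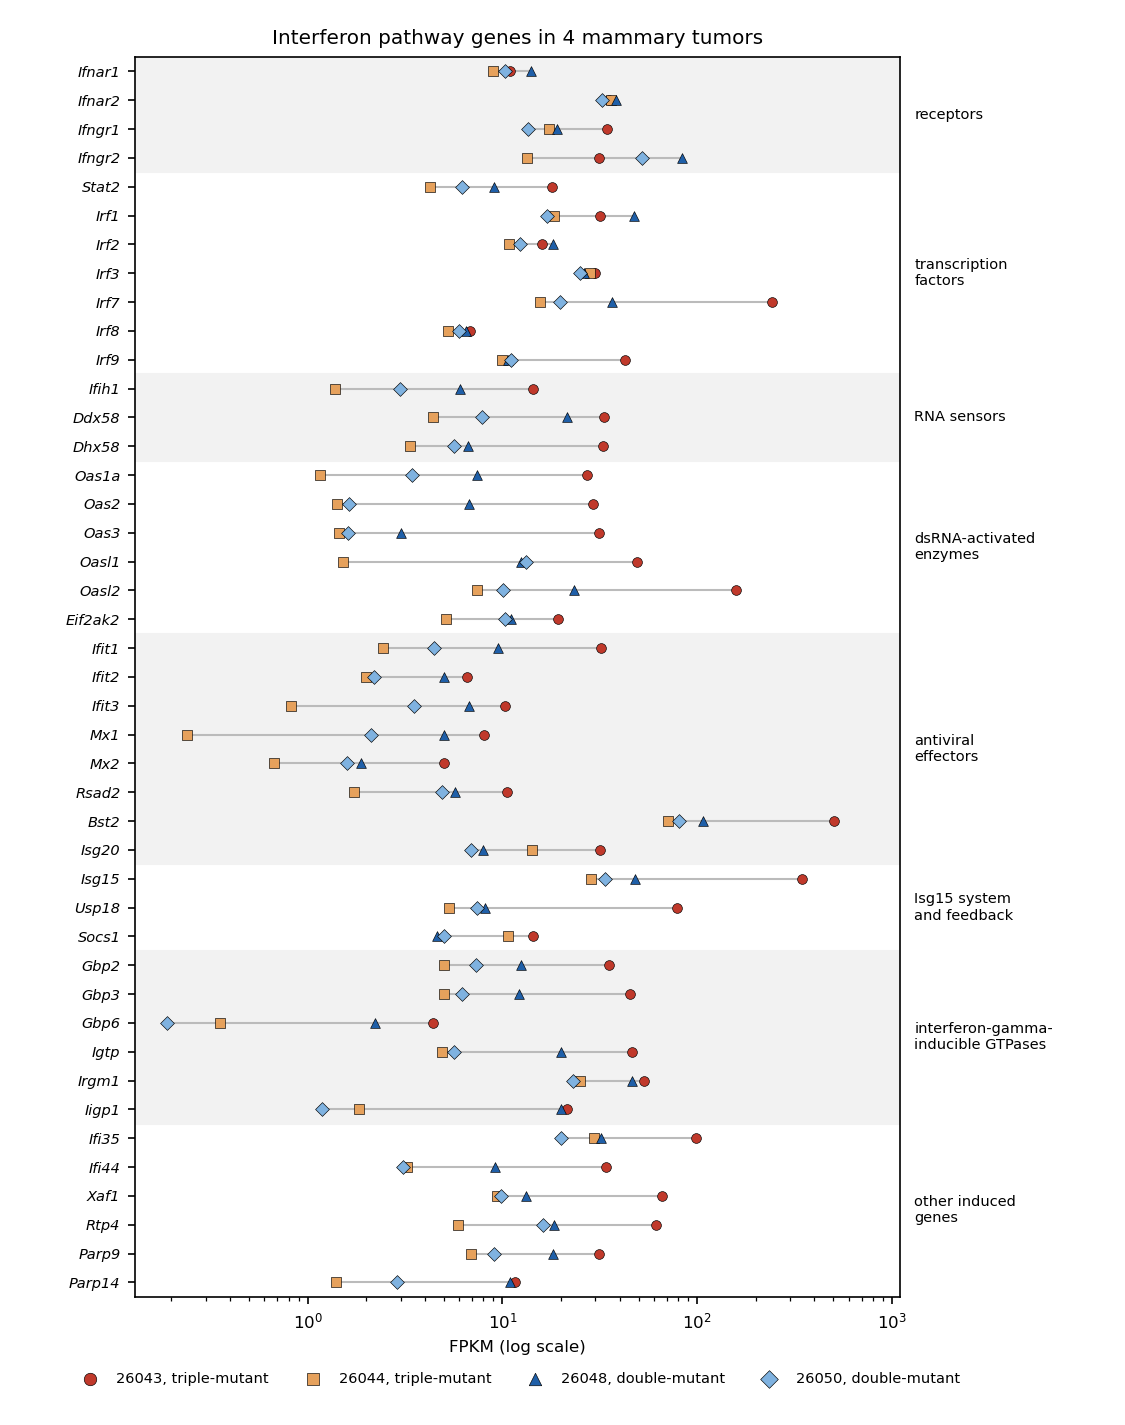
FPKM of each of the 43 interferon pathway genes in each tumor on a log axis, grouped by role, with 1 symbol per tumor and a line from the lowest to the highest tumor. Tumor 26043 (red circle) is the rightmost symbol for 38 genes and tumor 26044 (orange square) the leftmost for 32, while Ifnar2, Irf3 and Irf8 keep all 4 symbols close together.

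Between the triple-mutant tumors, 35 members were higher in 26043 than in 26044 by at least 1 log2 unit, against 13.4% of all genes, and 0 members were lower by that much, against 7.52%. The median log2 difference of 26043 minus 26044 was 2.60 over the members and 0.17 over all genes. The double-mutant pair differed less. Tumor 26048 was higher than 26050 by at least 1 log2 unit for 9 members, against 7.42% of all genes, with median log2 differences of 0.66 over the members and 0.05 over all genes. With 2 tumors per genotype these within-genotype differences have no test, and they describe these 4 tumors.

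**Figure D2:**
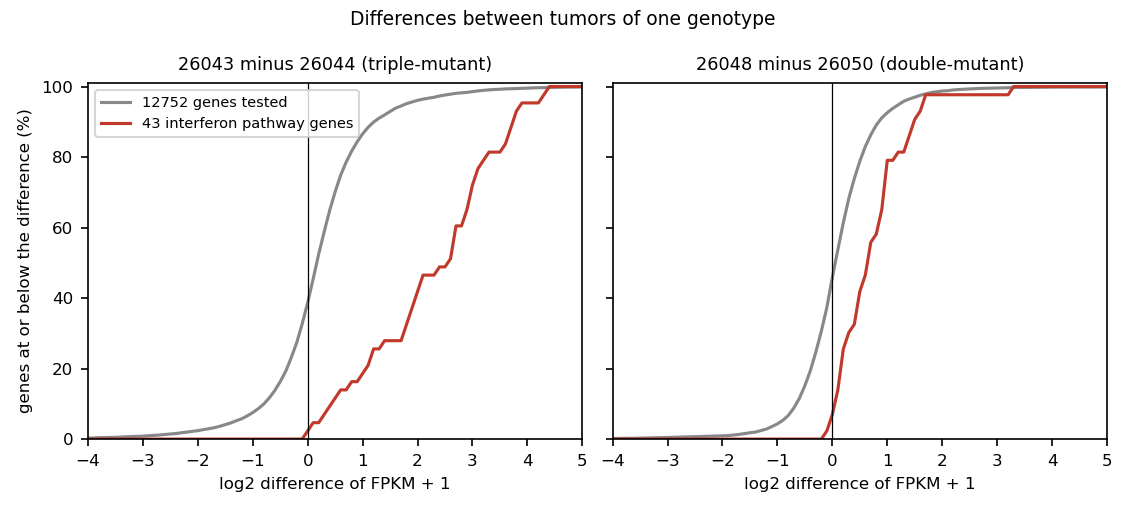
Cumulative percentage of genes at or below a given log2 difference of FPKM + 1 between the tumors of one genotype, for the 43 interferon pathway genes (red) and all 12752 genes tested (gray), with 26043 minus 26044 on the left and 26048 minus 26050 on the right. The red curve lies to the right of the gray one in both panels, with medians of 2.60 against 0.17 on the left and 0.66 against 0.05 on the right.

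The comparison the design implies is triple-mutant against double-mutant, and it asked whether Rank status went with interferon gene levels. In limma on log2(FPKM + 1) with Benjamini-Hochberg adjustment, 0 of the 43 members passed an adjusted p of 0.05, and 0% of all 12752 genes did, where the smallest adjusted p was 0.064. At an unadjusted threshold of 0.05, 3 members passed, or 6.98% of the members, against 9.82% of all genes. The log2 fold change (triple-mutant minus double-mutant) was above 0 for 31 members and below 0 for 12, from -1.63 to 1.46, with a median of 0.24 against -0.02 over all genes. That median rested on single tumors: it was -0.70 without tumor 26043 and 1.53 without tumor 26044. An exact permutation test of any single value in 2 against 2 tumors cannot give a two-sided p below 0.333.

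For 39 members the genotypes overlapped. Both triple-mutant tumors were higher for 3 members, Isg20, Socs1 and Irf3, against 21.3% of all genes, and both double-mutant tumors were higher for 1, Ifngr2, against 22.9% of all genes. These counts were 6.98% and 2.33% of the members. With 1 tumor left out, non-overlap is more common among all genes too. Without tumor 26044 the remaining triple-mutant tumor was higher than both double-mutant tumors for 38 members, against 39.3% of all genes. These are the same 38 members that were highest in tumor 26043. Without tumor 26048 both triple-mutant tumors were higher than the remaining double-mutant tumor for 10 of the 42 members still fitted, against 36.6% of all genes. Without tumor 26043 both double-mutant tumors were higher than the remaining triple-mutant tumor for 32 of the 42 members still fitted, against 45.9% of all genes. These 32 are the members that were lowest in tumor 26044.

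**Figure D3:**
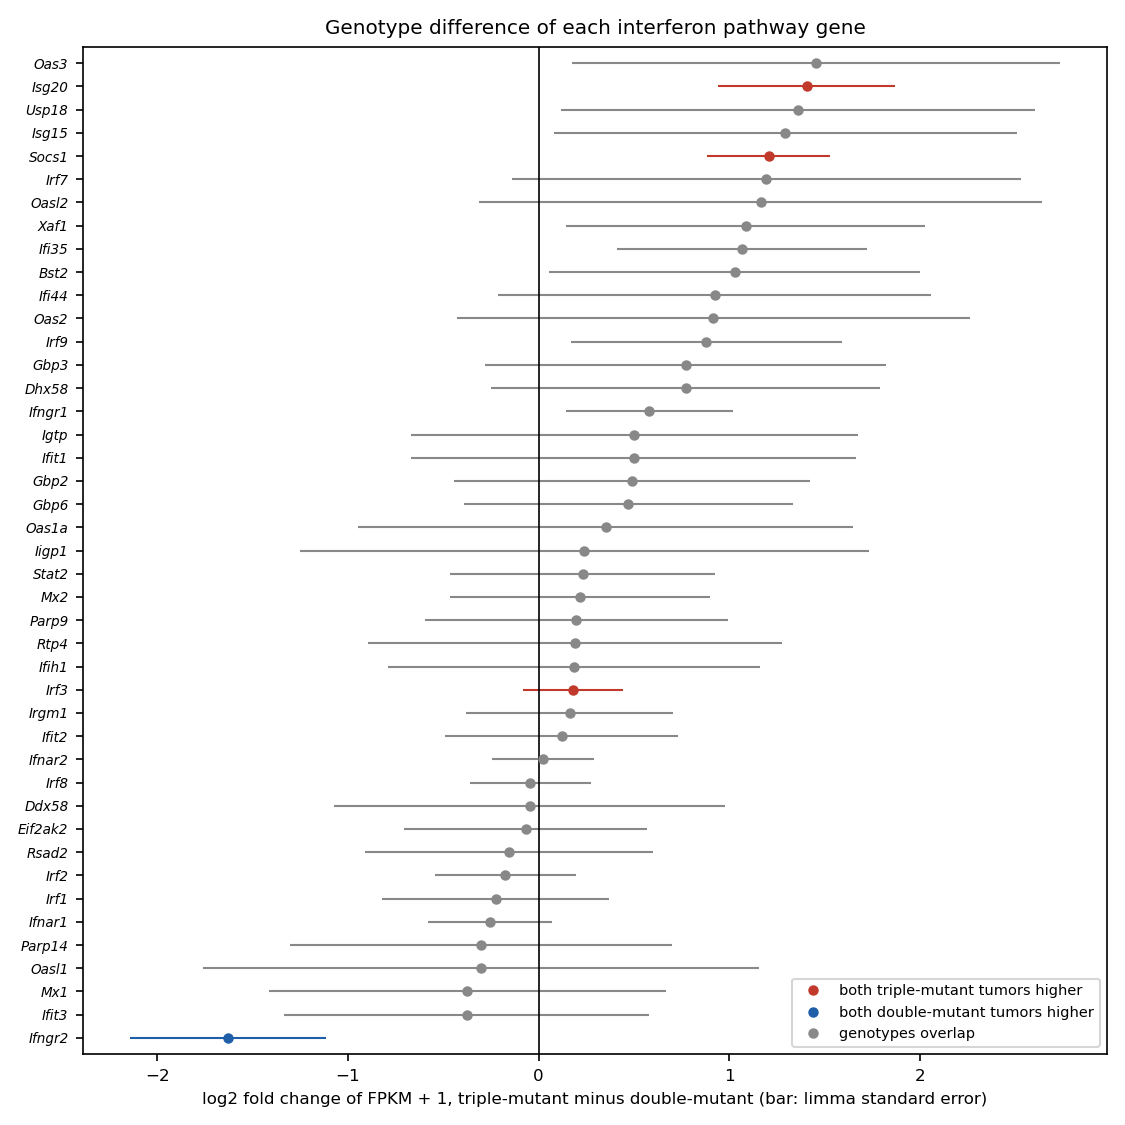
Log2 fold change of FPKM + 1, triple-mutant minus double-mutant, with the limma standard error (n = 2 tumors per genotype), for each interferon pathway gene in order of its value. The 3 genes with both triple-mutant tumors higher (red) and the 1 with both double-mutant tumors higher (blue) stand among 39 whose genotypes overlap (gray), most of these with long error bars.

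Of the 4 receptor chains, tumor 26043 was highest for 1 and double-mutant tumor 26048 for 3. Ifnar1, which carries the docking site for one of the receptor kinases, was at 10.97 and 8.94 FPKM in the triple-mutant tumors 26043 and 26044 and at 13.99 and 10.3 FPKM in the double-mutant tumors 26048 and 26050. Ifnar2, its partner, was at 35.4 and 36.1 FPKM in the triple-mutant and at 38.3 and 32.4 FPKM in the double-mutant tumors. Both chains overlapped between genotypes, with log2 fold changes of -0.26 ± 0.33 for Ifnar1 (SE, adjusted p = 0.81) and 0.02 ± 0.27 for Ifnar2 (adjusted p = 0.98). Ifngr1, the ligand-binding chain for interferon gamma, was at 34.3 and 17.4 FPKM in tumors 26043 and 26044 and at 19.0 and 13.5 FPKM in tumors 26048 and 26050, so that tumor 26043 alone was high.

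Ifngr2, the signal-transducing partner chain of the interferon gamma receptor, was the 1 member with both double-mutant tumors higher. It was at 31.5 FPKM in tumor 26043 and 13.4 in 26044, the triple-mutant pair, and at 84.0 FPKM in tumor 26048 and 51.9 in 26050, the double-mutant pair. The log2 fold change was -1.63 ± 0.52 (SE, adjusted p = 0.48), the largest in size among the members. It ranged from -2.22 to -1.05 when 1 tumor was left out, and without overlap its sign could not turn. The gene lies in the class II cytokine receptor cluster on chromosome 16 (chr16:91547094-91564007, mm10) beside Ifnar2 (chr16:91372783-91405587), Il10rb (chr16:91406235-91425834) and Ifnar1 (chr16:91485215-91510522). Il10rb, a chain of the interleukin-10 and interferon lambda receptors, was at 17.3 and 8.22 FPKM in tumors 26043 and 26044 and at 25.6 and 19.4 FPKM in tumors 26048 and 26050, again with both double-mutant tumors higher (log2 fold change -0.84 ± 0.44, adjusted p = 0.59). Of 11 tested neighbors around this cluster, 4 had both double-mutant tumors higher and 0 had both triple-mutant tumors higher, with a median log2 fold change of -0.30. Over all genes the shares were 22.9% and 21.3%, and no pattern is read from these counts.

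The transcription factors divided into a flat and a variable set. Irf3, a constitutive factor that is switched on by phosphorylation after nucleic acid sensing, was at 30.0 and 28.3 FPKM in the triple-mutant and at 26.2 and 25.0 FPKM in the double-mutant tumors. Both triple-mutant tumors were higher for it, but by a log2 fold change of only 0.18 ± 0.26 (SE, adjusted p = 0.83), and after rescaling to TPM its genotypes overlapped. Irf8, a factor of myeloid cells and B cells, was at 6.85 and 5.28 FPKM in tumors 26043 and 26044 and at 6.47 and 6.01 FPKM in tumors 26048 and 26050. Irf2, which competes with Irf1 for binding sites, was at 15.95 and 10.8 FPKM in the triple-mutant and at 18.2 and 12.3 FPKM in the double-mutant tumors. For both the 4 tumors lay within a narrow band and the genotypes overlapped.

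Irf7, itself interferon-induced and the factor that amplifies type I interferon output, had the widest spread of the class. It was at 243.2 and 15.7 FPKM in the triple-mutant tumors 26043 and 26044 and at 36.4 and 19.8 FPKM in the double-mutant tumors 26048 and 26050. The ratio of 26043 to 26044 was 15.5, and 26043 was 6.69 times the next tumor. Irf9, the DNA-binding partner of the activated STAT pair, was at 42.4 and 9.98 FPKM in tumors 26043 and 26044 and at 10.7 and 11.0 FPKM in tumors 26048 and 26050, so that 3 tumors were level and 26043 stood alone. Stat2, the third subunit of that complex, was at 17.97 and 4.27 FPKM in the triple-mutant and at 9.05 and 6.22 FPKM in the double-mutant tumors. Their log2 fold changes were 1.20 ± 1.34 for Irf7, 0.88 ± 0.71 for Irf9 and 0.23 ± 0.70 for Stat2 (SE, adjusted p from 0.70 to 0.92).

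Irf1, the factor closest to interferon gamma, followed another order. It was at 31.7 and 18.4 FPKM in tumors 26043 and 26044 and at 47.4 and 17.0 FPKM in tumors 26048 and 26050, highest in double-mutant tumor 26048. The log2 fold change was -0.23 ± 0.59 (SE, adjusted p = 0.91), and the genotypes overlapped.

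The 32 members other than receptors and transcription factors were all highest in tumor 26043, 32 of 32, and 25 of them were lowest in tumor 26044, 6 in 26050 and 1 in 26048. Their summed FPKM was 1955 in tumor 26043, 263.4 in 26044, 523 in 26048 and 313 in 26050. Over all members, 22 had in tumor 26043 at least 2 times the FPKM of the next tumor, against 3.72% of all genes.

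The RNA sensors detect viral or misplaced double-stranded RNA in the cytoplasm. Ifih1, which encodes MDA5, was at 14.3 and 1.38 FPKM in tumors 26043 and 26044 and at 6.05 and 2.996 FPKM in tumors 26048 and 26050. Ddx58, which encodes RIG-I, was at 33.2 and 4.41 FPKM in the triple-mutant and at 21.4 and 7.82 FPKM in the double-mutant tumors. Dhx58, which encodes their regulator LGP2, was at 32.8 and 3.37 FPKM in the triple-mutant and at 6.63 and 5.64 FPKM in the double-mutant tumors. In all of these the triple-mutant values enclosed the double-mutant ones, and the log2 fold changes of 0.19, -0.05 and 0.77 were smaller than their standard errors of 0.98, 1.02 and 1.02.

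The class of double-stranded RNA-activated enzymes holds the oligoadenylate synthetases that switch on RNase L, the related Oasl genes and the kinase PKR. It had the largest gap between the triple-mutant tumors, with a median log2 difference of 3.71. Oas3 was at 31.2 and 1.45 FPKM in tumors 26043 and 26044 and at 3.02 and 1.60 FPKM in tumors 26048 and 26050. Oasl2 was at 158.6 and 7.42 FPKM in the triple-mutant and at 23.2 and 10.02 FPKM in the double-mutant tumors. Oas2 was at 29.1 and 1.41 FPKM in the triple-mutant and at 6.75 and 1.63 FPKM in the double-mutant tumors. For all of them 26043 was far above the double-mutant tumors and 26044 was below both, and log2 fold changes of 1.46 ± 1.28 for Oas3, 1.17 ± 1.48 for Oasl2 and 0.92 ± 1.34 for Oas2 (SE) rested on that 1 tumor. Without 26043 they were -0.40, -0.96 and -0.90.

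Oasl1, which restrains translation of Irf7, showed the largest log2(FPKM + 1) difference of any member between tumors of one genotype, 4.32. It was at 49.2 and 1.51 FPKM in tumors 26043 and 26044, a ratio of 32.6 where Mx1 had 33.5, and at 12.5 and 13.2 FPKM in tumors 26048 and 26050. Eif2ak2, the gene of PKR, was at 19.3 and 5.16 FPKM in the triple-mutant and at 11.1 and 10.3 FPKM in the double-mutant tumors. In each the double-mutant tumors were level with each other and lay between the triple-mutant ones. Oas1a ranged from 1.16 FPKM in tumor 26044 to 27.1 FPKM in tumor 26043, and reads shared with close Oas1 paralogs make its value uncertain.

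Among the antiviral effectors, Bst2, which encodes tetherin and holds budding virus at the cell surface, was the most abundant. It was at 505.8 and 70.9 FPKM in tumors 26043 and 26044 and at 106.7 and 80.3 FPKM in tumors 26048 and 26050, with a log2 fold change of 1.03 ± 0.97 (SE, adjusted p = 0.74). Ifit1, which binds foreign RNA ends, was at 32.2 and 2.43 FPKM in the triple-mutant and at 9.46 and 4.44 FPKM in the double-mutant tumors. Both had 1 triple-mutant tumor above and 1 below all the others. Ifit2, Ifit3, Mx1, Mx2 and Rsad2, whose products block viral translation, entry or replication, were lower in level, from 0.239 FPKM for Mx1 in tumor 26044 to 10.6 FPKM for Rsad2 in tumor 26043, and all 5 had the same extremes.

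Isg20, an exonuclease that degrades single-stranded RNA, was the exception in this class (chr7:78913765-78920396). It was at 31.8 and 14.2 FPKM in tumors 26043 and 26044 and at 7.98 and 6.87 FPKM in tumors 26048 and 26050. Tumor 26044, the lowest for the other 7 effectors, was here above both double-mutant tumors. The log2 fold change was 1.41 ± 0.47 (SE, adjusted p = 0.49). It ranged from 0.85 to 1.96 when 1 tumor was left out, and without overlap its sign could not turn.

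In the Isg15 system, Isg15 itself, a ubiquitin-like protein that is attached to other proteins and among the strongest interferon targets, was at 346.4 and 28.4 FPKM in tumors 26043 and 26044 and at 48.2 and 33.5 FPKM in tumors 26048 and 26050. Usp18, the protease that removes Isg15 and damps the type I receptor, was at 79.0 and 5.31 FPKM in the triple-mutant and at 8.10 and 7.40 FPKM in the double-mutant tumors. In tumor 26043 they were 7.19 and 9.76 times the next tumor, and in the other 3 tumors they were close together. Their log2 fold changes of 1.30 ± 1.22 and 1.36 ± 1.25 (SE, adjusted p = 0.74 and 0.73) became -0.48 and -0.47 without tumor 26043.

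Socs1, the feedback inhibitor of the receptor kinases, had both triple-mutant tumors higher, as did 21.3% of all genes. It was at 14.4 and 10.6 FPKM in tumors 26043 and 26044 and at 4.59 and 5.02 FPKM in tumors 26048 and 26050 (chr16:10783809-10785536). Tumors of one genotype were close, and both triple-mutant values were above both double-mutant values. The log2 fold change of 1.21 ± 0.32 (SE) had the smallest adjusted p of the members, 0.45, and ranged from 1.005 to 1.41 when 1 tumor was left out. Its FPKM lay outside Cufflinks' own confidence interval in all 4 tumors, and with the midpoint of that interval in its place the log2 fold change was 0.76.

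The interferon-gamma-inducible GTPases guard against vacuolar pathogens, and in these the double-mutant tumors also differed from each other, with a median log2 difference of 1.21 for 26048 minus 26050. Gbp3 was at 45.1 and 5.03 FPKM in tumors 26043 and 26044 and at 12.2 and 6.20 FPKM in tumors 26048 and 26050. Igtp was at 46.5 and 4.90 FPKM in the triple-mutant and at 20.1 and 5.63 FPKM in the double-mutant tumors. Gbp2 was at 35.5 and 5.02 FPKM in the triple-mutant and at 12.4 and 7.28 FPKM in the double-mutant tumors. Each had 1 high and 1 low tumor per genotype, and log2 fold changes of 0.77 ± 1.05 for Gbp3, 0.50 ± 1.17 for Igtp and 0.49 ± 0.93 for Gbp2 (SE) lay within their errors.

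Irgm1, a regulator of the other immunity-related GTPases and the most abundant of the class, was at 53.6 and 25.2 FPKM in tumors 26043 and 26044 and at 46.5 and 22.9 FPKM in tumors 26048 and 26050. Iigp1, an effector at the pathogen vacuole, was at 21.5 and 1.85 FPKM in the triple-mutant and at 20.0 and 1.19 FPKM in the double-mutant tumors. Gbp6 was at 4.41 and 0.356 FPKM in the triple-mutant and at 2.21 and 0.189 FPKM in the double-mutant tumors. In these 3, 26043 and 26048 were the high tumors and 26044 and 26050 the low ones, so the split ran across the genotypes. Gbp2, Gbp3 and Gbp6 belong to a family of close paralogs, and how reads shared by them were assigned bears on their values.

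Among the other induced genes, Xaf1, a proapoptotic factor, was at 66.0 and 9.37 FPKM in tumors 26043 and 26044 and at 13.2 and 9.81 FPKM in tumors 26048 and 26050. Ifi35 was at 98.8 and 29.6 FPKM in the triple-mutant and at 32.1 and 20.0 FPKM in the double-mutant tumors, the highest mean of the class. Ifi44 was at 34.1 and 3.23 FPKM in the triple-mutant and at 9.12 and 3.09 FPKM in the double-mutant tumors. All 3 had overlapping genotypes, with log2 fold changes of 1.09 ± 0.94, 1.07 ± 0.66 and 0.92 ± 1.14 (SE). Rtp4, Parp9 and Parp14 were highest in tumor 26043 and lowest in 26044, and Parp9 overlaps the neighboring gene Dtx3l on the chromosome.

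Set beside double-mutant tumor 26048, tumor 26043 was not high for all members to the same degree. It was higher by at least 1 log2 unit for 23 members, against 9.43% of all genes, and lower for 5, Ifnar1, Ifnar2, Ifngr2, Irf1 and Irf2. The ratio of 26043 to 26048 was 9.76 for Usp18, 7.19 for Isg15, 6.69 for Irf7 and 10.3 for Oas3, and it was 1.08 for Iigp1, 1.15 for Irgm1, 1.07 for Parp14 and 0.669 for Irf1. The ratio of 26048 to 26050 was 16.8 for Iigp1, 2.03 for Irgm1, 3.80 for Parp14 and 2.79 for Irf1, and it was 1.09 for Usp18, 1.44 for Isg15, 1.84 for Irf7 and 1.88 for Oas3. Some members were high in both ratios: Oas2 had 4.32 for 26043 to 26048 and 4.15 for 26048 to 26050, Oasl2 had 6.83 and 2.32, and Ifi44 had 3.75 and 2.96. The median log2 difference of 26043 minus 26048 was 2.82 in the Isg15 system and 1.93 for the double-stranded RNA-activated enzymes. It was 1.64 for the other induced genes and 1.12 for the RNA sensors. The interferon-gamma-inducible GTPases, at 0.96, were close to the antiviral effectors, at 0.93. The transcription factors were at 0.19 and the receptors at -0.22. The genes given with ratios here were singled out after their values were seen.

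**Figure D4:**
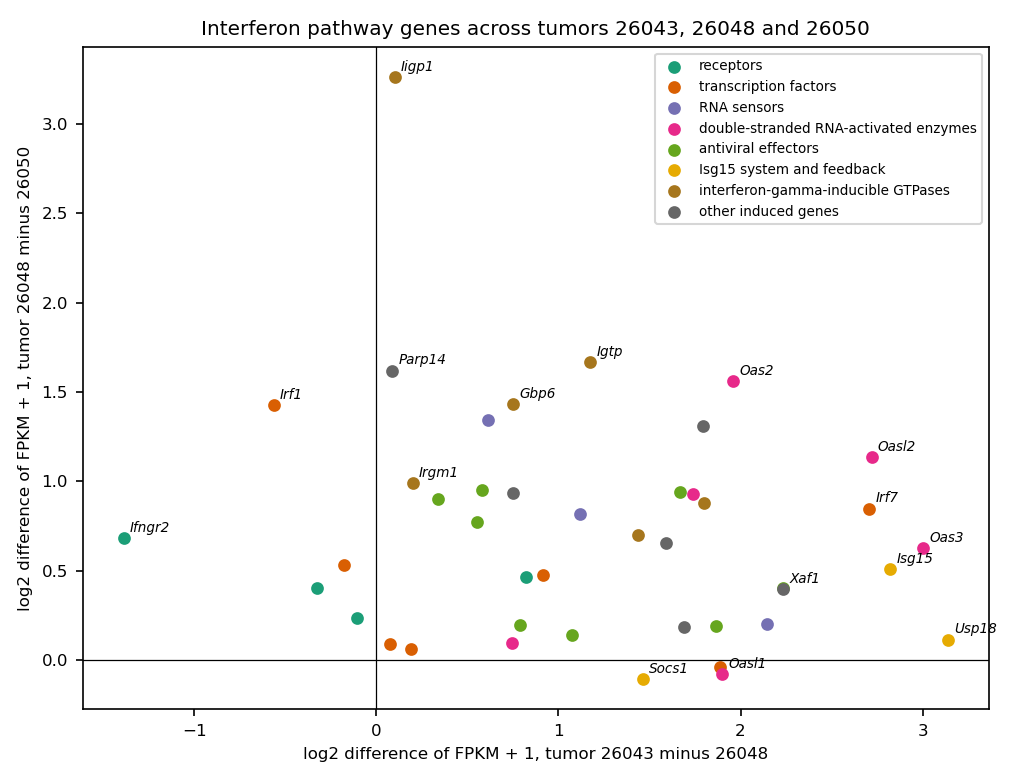
Each point is 1 interferon pathway gene, colored by role, with the log2 difference of FPKM + 1 of tumor 26043 minus 26048 on the horizontal axis and of 26048 minus 26050 on the vertical axis. Usp18, Oas3 and Isg15 lie far to the right near the bottom, Iigp1 lies at the top near 0 on the horizontal axis, and Ifngr2 lies to the left.

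The promoters are shown because the interferon response elements in them are the sequences through which STAT and IRF factors act. RefSeq promoter windows on GRCm38.p6 (250 bases before to 50 bases after the transcription start) matched 33 of the 43 members. The core of the interferon-stimulated response element was searched as GAAANNGAAA on either strand, that is also as TTTCNNTTTC. It was found in 17 of the 33 members, 51.5%, and in 3.99% of the 27025 genes with such a window. The gamma-activated site, TTCNNNGAA, which reads the same on both strands, was found in 12 of the 33, 36.4%, against 9.55% of all genes, and 5 members held both. The sequences below run 5′ to 3′ on the strand of the gene, with every base of a match in capitals. They show Isg15, Bst2 and Oas3, which were high in tumor 26043 alone, and Irgm1 and Igtp, which were also high in tumor 26048. Socs1, whose genotypes did not overlap, is shown too.
Isg15 (chr4:156200860-156200911, minus strand): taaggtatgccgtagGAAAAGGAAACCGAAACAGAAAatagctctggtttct
Bst2 (chr8:71537572-71537617, minus strand): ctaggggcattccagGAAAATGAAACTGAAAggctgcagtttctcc
Oas3 (chr5:120777710-120777749, minus strand): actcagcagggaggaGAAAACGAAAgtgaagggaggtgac
Irgm1 (chr11:48871420-48871465, minus strand): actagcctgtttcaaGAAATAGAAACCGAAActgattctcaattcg
Igtp (chr11:58199507-58199546, plus strand): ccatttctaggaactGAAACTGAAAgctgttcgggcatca
Socs1 (chr16:10785589-10785634, minus strand): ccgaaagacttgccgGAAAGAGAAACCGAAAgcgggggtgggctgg

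Isg15 carried 3 overlapping matches in a single run from base 78 to base 57 before the start, and Bst2, Irgm1 and Socs1 carried 2 overlapping matches each, while Oas3 and Igtp carried 1. By role, the core was found in 0 of 4 receptors, 2 of 7 transcription factors (Stat2 and Irf2), 2 of 2 RNA sensors, 3 of 5 double-stranded RNA-activated enzymes, 4 of 6 antiviral effectors, 2 of 2 genes of the Isg15 system and feedback, 4 of 4 GTPases and 0 of 3 other induced genes. The median log2 difference of 26043 minus 26044 was 2.66 over the 17 members with a match, 15 of them at 1 or more, and 1.255 over the 16 members without, 10 of them at 1 or more. Over the 10 members that have no entry it was 2.91, all 10 at 1 or more. The members without a match include all 4 receptors and most of the transcription factors, so match and role cannot be told apart in these medians. The largest difference was 3.715 among members with a match and 4.32 among those without. A match describes the letters of a window and shows no binding. Socs1 and Isg15 held the same core, while only Socs1 had both triple-mutant tumors higher, as 21.3% of all genes did.

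The wider interferon pathway was read from further lists. Of 19 genes of type I, II and III interferons in the tables, all 19 were below 1 FPKM in every tumor, and 16 or 17 were listed at 0 in each. Their summed FPKM was 0.571 in tumor 26043, 0.150 in 26044, 0.110 in 26048 and 0.082 in 26050. Ifnb1, which encodes interferon beta, was listed at 0.192 FPKM in tumor 26043, at 0.053 in 26050 and at 0 in the others, and Ifng, which encodes interferon gamma, at 0.063 FPKM in tumor 26048, at 0.029 in 26050 and at 0 in both triple-mutant tumors. The number of reads behind such values is unknown.

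Of 60 further interferon-stimulated genes tested, 0 passed an adjusted p of 0.05 in limma and 1 passed an unadjusted threshold of 0.05, against 9.82% of all genes, and 50 were highest in tumor 26043, against 27.9%. Both triple-mutant tumors were higher for 3, against 21.3% of all genes, and both double-mutant tumors for 1, Pnpt1, against 22.9%. Ogfr, an opioid growth factor receptor gene, was at 76.8 and 72.1 FPKM in the triple-mutant and at 34.9 and 29.0 FPKM in the double-mutant tumors (log2 fold change 1.20 ± 0.27 SE, adjusted p = 0.38). Trim34a was at 9.21 and 1.05 FPKM in the triple-mutant and at 0.829 and 0.769 FPKM in the double-mutant tumors, and Parp11 at 8.16 and 5.33 against 3.95 and 2.85 FPKM. The median log2 difference of 26043 minus 26044 over the 60 was 1.64, and that of 26048 minus 26050 was 0.81.

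The sensing genes and Jak kinases listed beside the members showed less of the difference inside the triple-mutant pair. Over 18 genes of nucleic acid sensing the median log2 difference of 26043 minus 26044 was 0.57, and over 9 genes of the Jak kinases and their inhibitors it was 0.49. Of the 18, 3 (Tlr3, Adar and Aim2) were higher in 26043 by at least 1 log2 unit, and 0 were lower by that much. The RNA sensors Ifih1, Ddx58 and Dhx58, members that also act upstream of interferon, had a median of 2.69. In the sensing list 2 genes, Trex1 and Rnaseh2c, were higher in both triple-mutant tumors. Another 3, Tlr4, Rnaseh2a and Tbk1, were higher in both double-mutant tumors. These were 11.1% and 16.7% of the list, against 21.3% and 22.9% of all genes. Trex1, the exonuclease that clears cytosolic DNA, was at 41.7 and 26.6 FPKM in the triple-mutant and at 16.4 and 13.3 FPKM in the double-mutant tumors, with a log2 fold change of 1.12 ± 0.35 (SE, adjusted p = 0.48). Among the Jak kinases and inhibitors, Socs3 and Pias4 were higher in both triple-mutant tumors, or 22.2% of the list, against 21.3% of all genes. Their log2 fold changes of 0.28 and 0.31 were close to their standard errors of 0.29 and 0.28.

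Markers of the cell types in the tumors moved as well. Tumor 26044 stood apart in the sum of epithelial markers. The sums for tumors 26043, 26048 and 26050 were 2857, 2078 and 1826 FPKM against the 371.1 given above. Epcam was at 25.7 FPKM in tumor 26044 against 346.6 to 516 in the others. Krt5, a basal keratin, was at 596 and 113.9 FPKM in tumors 26043 and 26044 but at 1.15 and 2.06 FPKM in tumors 26048 and 26050. Krt14 was at 611.4 and 42.5 FPKM in tumors 26043 and 26044 and at 2.08 and 6.99 FPKM in tumors 26048 and 26050. The 13 macrophage and myeloid markers summed to 806.3 in tumor 26043, 433 in 26044, 1220 in 26048 and 857 in 26050, with 10 of 13 highest in tumor 26048 and 1 in 26043. The 11 T and NK cell markers summed to 8.22, 3.06, 6.65 and 1.31 in the same order, 9 of them below 1 FPKM in every tumor. Only 2 of them passed the filter, Nkg7 and Cd4, and they differed in order. Nkg7, a cytotoxic granule gene, was at 2.97 FPKM in 26043 and 2.16 in 26048, at 0.093 in 26044 and at 0 in 26050. That is the order of Iigp1 and Gbp6 in its high and low pairs. Below 1 FPKM in every tumor, Cd3d, Cd3e, Cd3g, Cd2, Cd8a, Cd8b1, Gzmb and Prf1 had the same high and low pairs. Klrb1c did not, and for Prf1 tumors 26048 and 26050 were nearly level, at 0.024 and 0.023 FPKM. Cd4 was highest in 26044, at 2.201 FPKM, with 1.675 in 26043, 1.003 in 26048 and 0.515 in 26050. Of the 5 plasmacytoid dendritic cell markers, the broadly expressed Tcf4 made up 17.1, 23.8, 12.8 and 5.83 of sums of 17.9, 24.8, 13.9 and 7.54, and the defining marker Siglech was at most at 0.22 FPKM. The 6 dendritic cell markers summed to between 9.68 and 13.8, and the 5 B and plasma cell markers to at most 1.84. The sum of 5 endothelial markers was highest in tumor 26044, at 78.1 against 24.7 to 43.8, though Tek was highest in 26048. The 6 fibroblast markers summed to 196.1 and 111.9 in the triple-mutant and to 880.9 and 425.4 in the double-mutant tumors, mostly through the collagen genes Col1a1, Col1a2 and Col3a1, while Dcn overlapped and Pdgfra was higher in both triple-mutant tumors, at 2.90 and 19.1 against 1.63 and 1.44 FPKM. The part of any of these in the levels of the interferon genes was not tested.

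**Figure D5:**
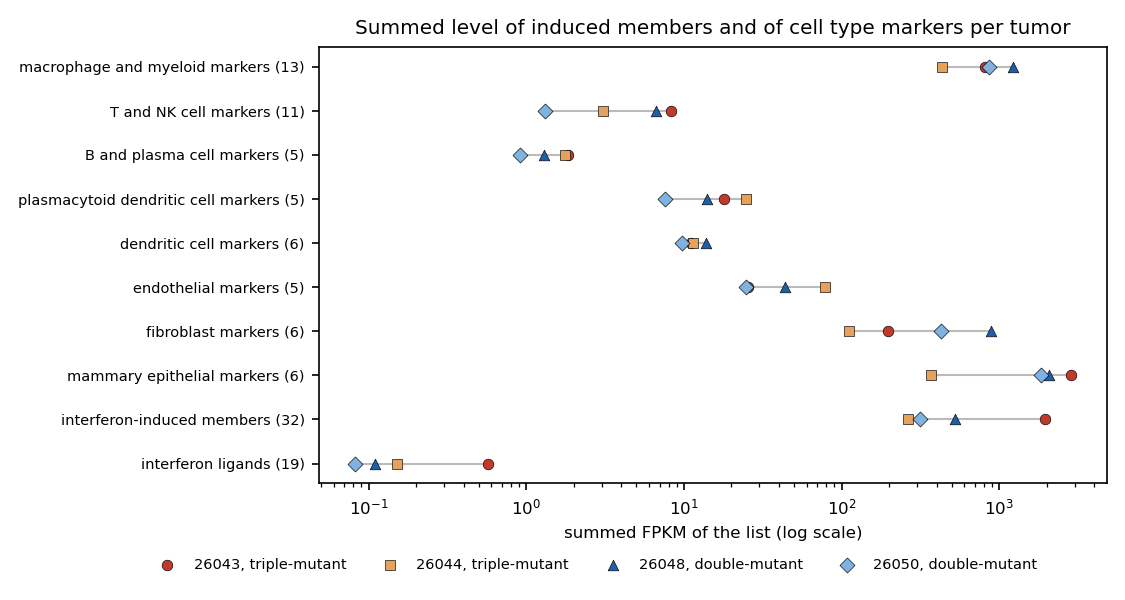
Summed FPKM per tumor on a log axis for the 32 interferon-induced members, 19 interferon genes and each list of cell type markers, with the number of genes in parentheses and 1 symbol per tumor. Tumor 26043 is far to the right for the induced members, at 1955 against 263.4 to 523, but not for the macrophage markers, while tumor 26044 is far to the left for the epithelial markers.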

How the data were processed

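PolyA RNA of 4 tumors was sequenced as strand-specific libraries with 50-bp reads. The authors aligned reads to mm10 with TopHat2 2.0.10 and Bowtie 0.12.9, per the labels' processing notes, and deposited FPKM per gene from Cufflinks 2.1.1 with its confidence interval. The counts they tested with DESeq2 1.6.2 were not used here. Depth is unknown, since the FPKM showed no plain whole-read steps, and summed FPKM was 690775 to 796031. The median half-width of Cufflinks' interval over the members was 5.14% to 12.2% of its midpoint. The genotype comes from the labels. The paper describes the females of both genotypes as littermates, but which tumors share a litter, and whether those of one genotype came from separate mice, is not given. The tumors were therefore not paired. The p-values set the genotype difference against the spread between tumors of one genotype, moderated over all genes tested. If tumors of one genotype share a mouse, that spread is not one between mice. Genes that reached 1 FPKM in 2 or more tumors were fitted as log2(FPKM + 1) with limma 3.58.1 in R 4.3.3 (lmFit, eBayes with a trend) and Benjamini-Hochberg adjustment, so fold changes of low genes are understated. Starts count from 1.

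The members and lists were chosen with earlier results of these data known. All members may be named. Values in every tumor are given for receptors and factors, and in each other role for the 3 largest fold changes and the highest mean, with others singled out after their values were seen. Every gene without overlap is named for the further interferon-stimulated genes, the sensing list and the Jak list. For the marker lists and the chromosome 16 neighbors only some of them are named. Alternatives were TPM, a minimum of 5 FPKM or no minimum, a pseudocount of 0.1, quantile and upper-quartile scaling, no trend, genes of status OK and each tumor left out. The interval midpoint was added after seeing the data.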

Additional observations from a re-analysis of the deposited data

How the results depend on the processing

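No interferon pathway gene passed an adjusted p of 0.05 in limma under any of the 9 alternatives that kept all tumors or the 4 fits without 1 tumor. Over all genes, 6 passed with quantile normalization, 5 without the trend and 1 with the interval midpoint, against 0 otherwise. Quantile normalization left 3 members higher in both double-mutant tumors (Ifngr2, Ifnar1 and Irf8) and upper-quartile scaling 2 (Ifngr2 and Ifnar1). The count highest in tumor 26043 was 34 to 38 under the alternatives that kept all tumors. Signs turned for Ifnar2 with TPM (-0.0074) and, with the interval midpoint, for Ddx58 (0.0902) and Eif2ak2 (0.13). FPKM lay outside Cufflinks' own interval in all 4 tumors for 18 members, and the cause was not tested.

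Leaving out 1 tumor, with a lone tumor assumed to vary like the other genotype, moved the median log2 fold change of the members from -0.70 (without 26043) to 1.53 (without 26044), the count higher in the triple-mutant tumors from 3 to 38 and the count higher in the double-mutant tumors from 1 (5 without 26050) to 32. The median of all genes was -0.13 without 26043. Gbp6 fell below the filter without 26043 and without 26048, where 42 members were fitted, so its range below rests on the other fits. The sign held for 7 members (Ifnar1, Ifngr1, Ifngr2, Irf3, Isg20, Socs1 and Ifi35). The sign could not turn for Ifngr2, Irf3, Isg20 and Socs1, whose genotypes did not overlap. It turned in at least 1 of these fits for the other 36, whose lowest and highest log2 fold changes were -0.69 to 1.16 for Stat2, -0.74 to 3.13 for Irf7, -0.11 to 1.87 for Irf9, -1.16 to 1.53 for Ifih1, -0.70 to 2.25 for Dhx58, -1.50 to 2.21 for Oas1a, -0.90 to 2.74 for Oas2, -0.40 to 3.32 for Oas3, -0.96 to 3.29 for Oasl2, -1.14 to 2.14 for Ifit1, -0.55 to 0.79 for Ifit2, -0.71 to 1.14 for Mx2, -0.38 to 2.44 for Bst2, -0.48 to 3.08 for Isg15, -0.47 to 3.20 for Usp18, -0.81 to 1.79 for Gbp2, -0.70 to 2.24 for Gbp3, -1.002 to 2.01 for Igtp, -0.37 to 0.69 for Irgm1, -1.39 to 1.87 for Iigp1, -0.60 to 2.45 for Ifi44, -0.26 to 2.43 for Xaf1, -1.40 to 1.78 for Rtp4, -0.82 to 1.22 for Parp9, -0.94 to 0.49 for Irf1, -0.44 to 0.0917 for Irf2, -0.20 to 0.12 for Irf8, -1.38 to 1.28 for Ddx58, -2.46 to 1.86 for Oasl1, -0.93 to 0.79 for Eif2ak2, -1.69 to 0.94 for Ifit3, -1.81 to 1.06 for Mx1, -1.20 to 0.89 for Rsad2, -1.50 to 0.90 for Parp14, -0.0945 to 0.14 for Ifnar2 and -0.25 to 1.47 for Gbp6.

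No paired analysis was possible because the tumors of the genotypes share no number and which of them came from the same litter is not given.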
